A study of Homo sapiens with 6 samples.

Results

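The 10 genes described here encode factors that make and mature the mRNAs of replication-dependent histones (NPAT, CASP8AP2, SLBP, ZNF473, LSM10, LSM11 and ERI1) or chaperones that carry newly made histones to chromatin (ASF1B, CHAF1A and CHAF1B). They were chosen by name for their roles, with earlier results of these data known, and each was found once among the 34738 genes of the deposited table. KHM-5M cells, a human thyroid cancer line per the labels, were transfected with siRNA against GDF15, a stress-responsive cytokine of the TGF-beta family (siGDF15, 3 libraries), and compared with control cells (NC, 3 libraries). All 6 libraries came from the same cell line, the labels give no other agent or allele, and neither a time after transfection nor the siRNA used for sequencing was settled here. The methods describe biological replicates and poly(A) selected RNA. The legend of the study's heatmap names another thyroid cancer line, TPC-1, and the sources differ on whether the NC cells received a negative control siRNA. An effect of transfection, or of the siRNA sequence itself, therefore cannot be told apart from that of lower GDF15.

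Histone mRNAs made in S phase are the main mRNAs of animal cells that end in a conserved stem-loop in place of a poly(A) tail. NPAT and CASP8AP2 gather at the histone genes in a nuclear body, SLBP binds the stem-loop, and the U7 snRNP, with its ring subunits LSM10 and LSM11 and with ZNF473, directs the cut just after it. ERI1 trims the end and takes part in the decay of these mRNAs when DNA synthesis stops. The chaperone ASF1B passes H3-H4 dimers to CAF-1, whose large and middle subunits are CHAF1A and CHAF1B, and CAF-1 deposits them behind the replication fork. Several of these genes are themselves expressed mainly in cycling cells, which is why S phase genes are given beside them.

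The promoters of 4 of the genes are shown first, because these genes cover the size of the changes described further on: ASF1B with the lowest fold change, CASP8AP2 in between, NPAT with the smallest change among the lowered genes, and LSM10, which was not called. Each line holds the 250 bases before the RefSeq start, 5′ to 3′ on the strand of the gene, in GRCh38.p14. They lie at chr19:14136590-14136839 (minus strand) for ASF1B, chr6:89829630-89829879 (plus strand) for CASP8AP2, chr11:108222639-108222888 (minus strand) for NPAT and chr1:36397909-36398158 (minus strand) for LSM10. Capitals mark matches, on either strand, to the E2F-type letters TTTCGCGC, TTTGGCGC, TTTCCCGC or TTTGCCGC, to the CHR letters TTTGAA (E2F sites and the CHR are elements known from cell cycle genes) and to CCAAT, which reads ATTGG on the other strand.
ASF1B: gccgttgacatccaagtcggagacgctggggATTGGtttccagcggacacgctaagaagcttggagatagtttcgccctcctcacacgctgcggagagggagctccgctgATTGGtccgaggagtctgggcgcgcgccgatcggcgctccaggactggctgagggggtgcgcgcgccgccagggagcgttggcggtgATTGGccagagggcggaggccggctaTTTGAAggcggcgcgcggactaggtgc
CASP8AP2: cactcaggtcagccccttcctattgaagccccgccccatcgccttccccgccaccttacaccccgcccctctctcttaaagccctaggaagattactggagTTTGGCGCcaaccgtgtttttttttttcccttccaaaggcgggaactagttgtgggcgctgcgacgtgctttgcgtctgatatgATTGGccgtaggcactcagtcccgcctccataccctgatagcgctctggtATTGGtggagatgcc
NPAT: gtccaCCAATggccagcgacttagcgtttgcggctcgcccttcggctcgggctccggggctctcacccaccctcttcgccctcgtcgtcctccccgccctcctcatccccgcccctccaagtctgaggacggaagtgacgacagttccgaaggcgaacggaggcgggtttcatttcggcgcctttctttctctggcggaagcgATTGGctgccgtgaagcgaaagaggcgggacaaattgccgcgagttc
LSM10: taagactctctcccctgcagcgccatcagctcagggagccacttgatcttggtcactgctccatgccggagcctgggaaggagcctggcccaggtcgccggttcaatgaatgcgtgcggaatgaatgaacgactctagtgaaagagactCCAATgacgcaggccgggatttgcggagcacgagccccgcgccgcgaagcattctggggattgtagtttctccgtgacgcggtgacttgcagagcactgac

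RefSeq promoters of 300 bases (250 before to 50 after the start) were found for 8 of the 10 genes, all but ZNF473 and ERI1. CASP8AP2 was the 1 of 8 with an E2F-type match, at bases -149 to -142 from the start, and 3.315% of all 35116 promoters held one. A CHR match stood in 2 of 8, ASF1B at -27 to -22 and LSM11 at 32 to 37 after the start, against 15.16% of all promoters. CCAAT stood in 5 of 8 (ASF1B, CASP8AP2, NPAT, LSM10 and CHAF1A), against 34.61%. In CHAF1A the last match, at -41 to -37, overlapped another on the opposite strand at -38 to -34. No match was found in SLBP or CHAF1B, which says only that these letters are not in the window. Among 23 promoters of other histone chaperones, described further on, CCAAT stood in 12, an E2F-type match in 3 and a CHR match in 2. Among 27 promoters of S phase markers these counts were 21, 14 and 2. CCAAT stood in some lowered genes and in LSM10, while the lowered genes SLBP, CHAF1B and LSM11 held none. The matches are a description of the sequence.

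Depth, the knockdown and the identity of the cells were examined first. Total counts were between 67569576 and 68025163 in NC and between 51738814 and 67793417 in siGDF15, where replicate 2 was lowest. These are the deposited counts, in which 1 read pair may be written as 4. Every total lay above the average number of reads per sample that the study states. Read pairs were therefore fewer than counts on average, by a factor that was not settled here. Pearson's r of libraries, across genes, was 0.984 to 0.991 within groups and 0.946 to 0.956 between them. Mitochondrially encoded genes held 6.39 to 6.78% of counts in NC and 8.53 to 9.17% in siGDF15, and the part of this difference in the results was not tested. GDF15 itself was 21.6 ± 2.03 FPKM (fragment counts corrected for transcript length and library size, given as mean ± SD, n = 3) in NC and 10.7 ± 0.166 in siGDF15 (log2 fold change -0.92, SE 0.079, adjusted p = 2.4e-05). Of 10 thyroid genes listed, 9 were in the table, and PAX8 (59.1 FPKM in NC, 79.4 in siGDF15) and FOXE1 (2.76 and 2.83) were the only ones above a mean of 1 FPKM. TG, which encodes thyroglobulin, and SLC5A5, the iodide transporter, were at or near 0. The 9 listed markers of blood, vessel and stromal cells found in the table summed to 36.8 to 42.2 FPKM in NC and 36.2 to 40.9 in siGDF15, mostly CD68, COL3A1 and COL1A1, while PTPRC, CD3E, VWF and CDH5 were at or near 0.

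In siGDF15, 8 of the 10 genes fell, none rose, and LSM10 and ZNF473 were not called. A gene was called at an adjusted p under 0.05 in edgeR's quasi-likelihood test of the counts, adjusted by Benjamini and Hochberg's method across the 11867 genes that averaged 1 FPKM or more, and all 10 genes passed that filter. Over all tested genes 31.4% were called lower and 30.0% higher. The median log2 fold change was -0.94 over the 10 genes and 0.0026 over all tested genes. All 3 chaperone genes fell (median -1.45), as did 5 of the 7 processing genes (median -0.71). No gene was higher at an unadjusted p under 0.05, nor by DESeq2. With a log2 fold change of -1 or less also required, as the study did, 4 genes passed (ASF1B, CHAF1B, CHAF1A and LSM11), beside 4.78% of tested genes. In FPKM every siGDF15 library lay below every NC library for 8 genes, the lowered ones, and for 42.8% of tested genes. Higher genes were 48.9% of all genes called with TMM scaling of the libraries, 36.6% with scaling by the total count alone and 55.8% with equal medians. The total count moved the median of all tested genes to -0.10, and under each of these scalings the 8 genes were called lower.

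**Figure D1:**
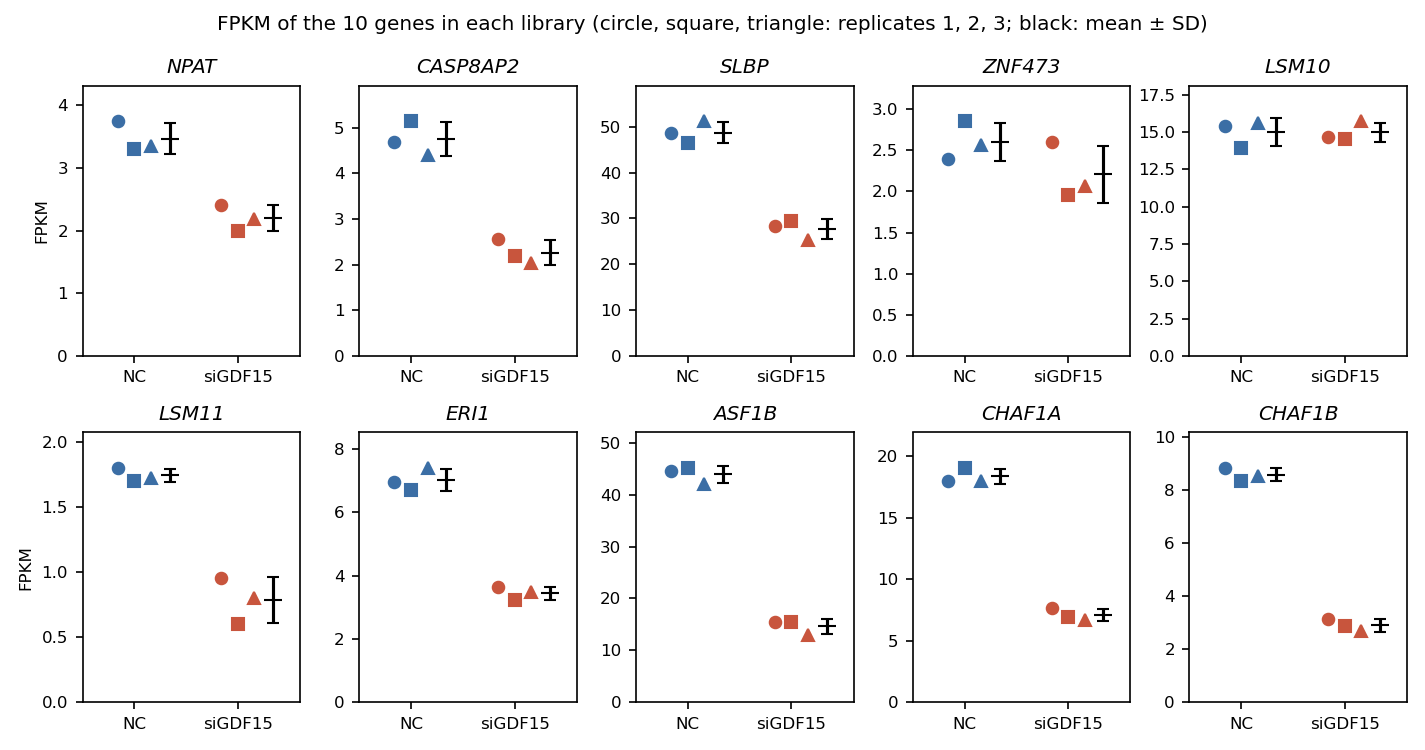
FPKM of the 10 genes in each library (vertical axes, each from 0), with NC in blue and siGDF15 in red, circles, squares and triangles for replicates 1, 2 and 3, and black bars for the mean ± SD. The 2 groups stand apart in 8 panels and overlap for ZNF473 and LSM10.

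NPAT and CASP8AP2, the factors of the histone gene body, both fell. NPAT (ENSG00000149308, chr11:108157215-108222638, minus strand, GRCh38 as in the table), the coactivator of histone gene transcription, was at 3.74, 3.30 and 3.35 FPKM in NC and 2.40, 1.99 and 2.19 in siGDF15. The groups did not overlap, and the siGDF15 mean was 63.4% of that in NC. The log2 fold change was -0.55 (SE 0.085, 95% interval -0.75 to -0.36, adjusted p = 0.00061), the smallest among the lowered genes. CASP8AP2 (ENSG00000118412, chr6:89829894-89874434, plus strand), also known as FLASH, binds LSM11 and brings in the cleavage machinery. Its level was 4.69, 5.14 and 4.41 FPKM in NC and 2.56, 2.18 and 2.03 in siGDF15, again without overlap. It fell by 0.97 on the log2 scale (SE 0.095, 95% interval -1.18 to -0.75, adjusted p = 4.8e-05), to 47.6% of the NC mean.

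NPAT shares the region between the genes with ATM, the kinase of the DNA damage response, which runs the other way from a start 405 bases off in the coordinates of the table. The NPAT sequence printed above lies in that region. ATM was looked at after the values of NPAT were seen. It was at 1.83, 1.89 and 1.46 FPKM in NC and at 1.65, 1.40 and 1.53 in siGDF15, with overlapping groups (log2 fold change -0.07, SE 0.097, adjusted p = 0.54). The log2 ratio of NPAT to ATM within a library was 0.97 ± 0.187 in NC and 0.50 ± 0.0187 in siGDF15, lower in all 3 siGDF15 libraries. The difference of -0.47 had an exact two-sided permutation p of 0.1, the smallest that 3 libraries against 3 can give. This ratio reuses the NPAT values that prompted it, and no share over other gene pairs was taken. It is a description only.

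SLBP (ENSG00000163950, chr4:1692731-1712344, minus strand), the stem-loop binding protein, had the highest level of the 10 genes in both groups. It was at 48.6, 46.4 and 51.2 FPKM in NC and 28.4, 29.4 and 25.3 in siGDF15. All siGDF15 libraries were lower, at 56.8% of the NC mean (log2 fold change -0.71, SE 0.073, 95% interval -0.88 to -0.54, adjusted p = 6.23e-05). ZNF473 (ENSG00000142528, chr19:50025714-50053414, plus strand), a zinc finger protein of the U7 complex, was at 2.39, 2.85 and 2.56 FPKM in NC and 2.60, 1.96 and 2.06 in siGDF15. Replicate 1 of siGDF15 lay among the NC libraries and the other two lay below them. The log2 fold change of -0.13 (SE 0.12, 95% interval -0.40 to 0.13, adjusted p = 0.35) did not pass, and without that library its adjusted p was still above 0.05, at 0.061.

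Of the ring subunits particular to the U7 snRNP, LSM11 fell and LSM10 was not called. LSM11 (ENSG00000155858, chr5:157743712-157760709, plus strand), which carries the extension that CASP8AP2 binds, was at 1.80, 1.70 and 1.73 FPKM in NC and 0.956, 0.599 and 0.802 in siGDF15. It fell by 1.04 on the log2 scale (SE 0.16, 95% interval -1.41 to -0.68, adjusted p = 0.000578), to 45.0% of the NC mean. Its counts, from 227 to 890 in a library, were the lowest of the 10 genes, its spread over the siGDF15 libraries was the widest (22.8% of the mean), and its interval reached across -1. Without siGDF15 replicate 2, the lowest library, the fold change was -0.89. LSM10 (ENSG00000181817, chr1:36391238-36397908, minus strand) was at 15.4, 13.9 and 15.6 FPKM in NC and 14.6, 14.6 and 15.7 in siGDF15. The groups overlapped, and the log2 fold change was 0.10 (SE 0.071, 95% interval -0.06 to 0.27, adjusted p = 0.24). A change of LSM10 as large as the fall of NPAT lay outside this interval. The log2 ratio of LSM10 to LSM11 was 3.03 ± 0.0719 in NC and 4.11 ± 0.294 in siGDF15, higher in each siGDF15 library by a mean difference of 1.08 (exact two-sided permutation p = 0.1, the smallest possible). With 1 in place of 0.1 added to each FPKM, the difference was 0.62. How often other gene pairs separate in this way was not counted, so this too is a description.

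ERI1 (ENSG00000104626, chromosome 8), the exonuclease that acts on the stem-loop, was at 6.94, 6.71 and 7.40 FPKM in NC and 3.63, 3.22 and 3.48 in siGDF15. The groups did not overlap, and the siGDF15 mean was 49.0% of the NC mean. The log2 fold change was -0.92 (SE 0.068, 95% interval -1.08 to -0.77, adjusted p = 9.97e-06).

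The chaperone genes had the 3 lowest fold changes of the group. ASF1B (ENSG00000105011, chr19:14119512-14136589, minus strand), the ASF1 paralog tied to proliferating cells, was at 44.6, 45.2 and 42.1 FPKM in NC and 15.6, 15.5 and 13.0 in siGDF15. It fell to 33.4% of the NC mean (log2 fold change -1.47, SE 0.078, 95% interval -1.65 to -1.29, adjusted p = 1.98e-06), and 1.97% of tested genes had a lower log2 fold change. CHAF1B (ENSG00000159259, chr21:36385392-36419015, plus strand), the middle subunit of CAF-1, was at 8.86, 8.37 and 8.54 FPKM in NC and 3.15, 2.90 and 2.68 in siGDF15. Its siGDF15 mean was 33.9% of that in NC (log2 fold change -1.45, SE 0.073, 95% interval -1.62 to -1.29, adjusted p = 1.52e-06). CHAF1B shares 757 bases with MORC3 on the same strand, which was at 4.82 FPKM in NC and 4.33 in siGDF15, so reads in that stretch could belong to either. CHAF1A (ENSG00000167670, chr19:4402640-4443397, plus strand), the large subunit that binds the sliding clamp PCNA, was at 18.0, 19.1 and 18.0 FPKM in NC and 7.68, 6.96 and 6.71 in siGDF15. The groups were far apart, with 38.8% of the NC mean left (log2 fold change -1.26, SE 0.062, 95% interval -1.40 to -1.12, adjusted p = 1.46e-06).

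A paralog of ASF1B and the remaining CAF-1 subunit were measured as direct partners, and both were called lower. ASF1A, the paralog of ASF1B with the same H3-H4 binding role, was 12.8 ± 0.441 FPKM in NC and 9.91 ± 0.227 in siGDF15 (log2 fold change -0.27, SE 0.059, adjusted p = 0.00435). The log2 ratio of ASF1B to ASF1A within a library was 1.77 ± 0.103 in NC and 0.56 ± 0.118 in siGDF15. ASF1B thus stood closer to ASF1A in every siGDF15 library (difference -1.21, exact two-sided permutation p = 0.1, the smallest possible). No share over other gene pairs was taken for this ratio, so its separation is a description only. RBBP4, the small CAF-1 subunit, which also serves in other chromatin complexes, was 15.1 ± 0.0962 FPKM in NC and 10.9 ± 0.481 in siGDF15 (log2 fold change -0.36, SE 0.044, adjusted p = 0.000164). The CHAF1A to CHAF1B ratio moved little. On the log2 scale it was 1.09 ± 0.0829 in NC and 1.26 ± 0.0297 in siGDF15 (difference 0.17, exact two-sided permutation p = 0.1), and with 1 added to each FPKM the difference was 0.040 (exact permutation p = 0.5).

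**Figure D2:**
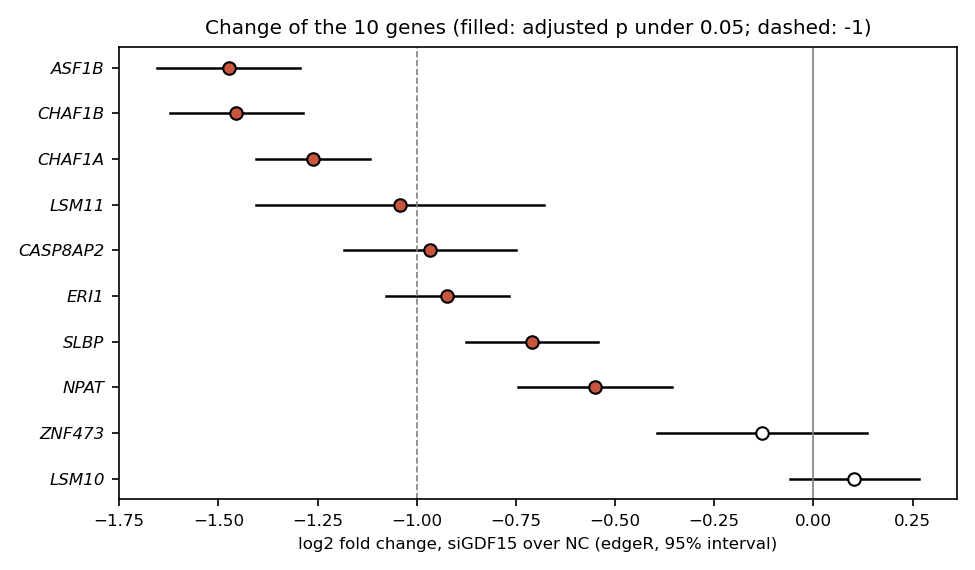
Log2 fold change of siGDF15 over NC for the 10 genes (horizontal axis, points) with 95% intervals from edgeR (lines), filled where the adjusted p was under 0.05; the dashed line marks -1. ASF1B, CHAF1B and CHAF1A lie wholly to the left of -1, and the intervals of ZNF473 and LSM10 include 0.

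The order of the levels also differed between the groups. In NC the FPKM ran from SLBP through ASF1B, CHAF1A, LSM10, CHAF1B, ERI1, CASP8AP2, NPAT and ZNF473 to LSM11, and no neighbours in this order overlapped over the 3 libraries. In siGDF15 LSM10 stood second and overlapped ASF1B (14.6 to 15.7 FPKM beside 13.0 to 15.6). CASP8AP2, ZNF473 and NPAT, between 1.96 and 2.60 FPKM, could no longer be ordered there. In the order of change, 6 of the 9 neighbouring pairs had log2 ratios that overlapped between the groups. The pairs whose ratio stood apart were CHAF1B to CHAF1A (difference -0.17), ERI1 to SLBP (-0.19) and NPAT to ZNF473 (-0.40). The order was taken from the changes in these same libraries, so the negative sign follows from it. No share over other gene pairs was taken, and the separations are a description only. For CHAF1B and CHAF1A the difference shrank with 1 added to each FPKM, as given above.

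S phase genes fell in the same libraries. All 38 genes of a widely used S phase marker list, taken without those of the 10 genes that stand on it and without MCM2 and NASP, which were counted among the chaperones, were called lower, with a median log2 fold change of -1.43. Their summed FPKM was 867 to 888 in NC and 299 to 342 in siGDF15. FEN1, a flap nuclease of lagging strand synthesis, fell by 1.42 on the log2 scale, RRM2, the small subunit of ribonucleotide reductase, fell by 1.89, and ATAD2, a chromatin ATPase, fell by 1.62 (adjusted p = 4.33e-07, 4.54e-07 and 6.3e-07). In bulk RNA, fewer cells in S phase and less RNA in each such cell cannot be told apart.

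The 10 genes were therefore also set against the mean log2 FPKM of the 38 markers in the same library, a comparison chosen after the values were seen. That mean was 3.88 ± 0.0172 in NC and 2.40 ± 0.111 in siGDF15, a difference of -1.48. Measured from it, ASF1B (difference -0.10) and CHAF1B (-0.05) overlapped between the groups. The other 8 genes were higher relative to the markers in every siGDF15 library than in any NC library, as were 95.7% of all tested genes. The difference was 0.13 for CHAF1A, 0.40 for LSM11, 0.44 for CASP8AP2, 0.48 for ERI1, 0.67 for SLBP, 0.85 for NPAT, 1.25 for ZNF473 and 1.48 for LSM10.

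**Figure D3:**
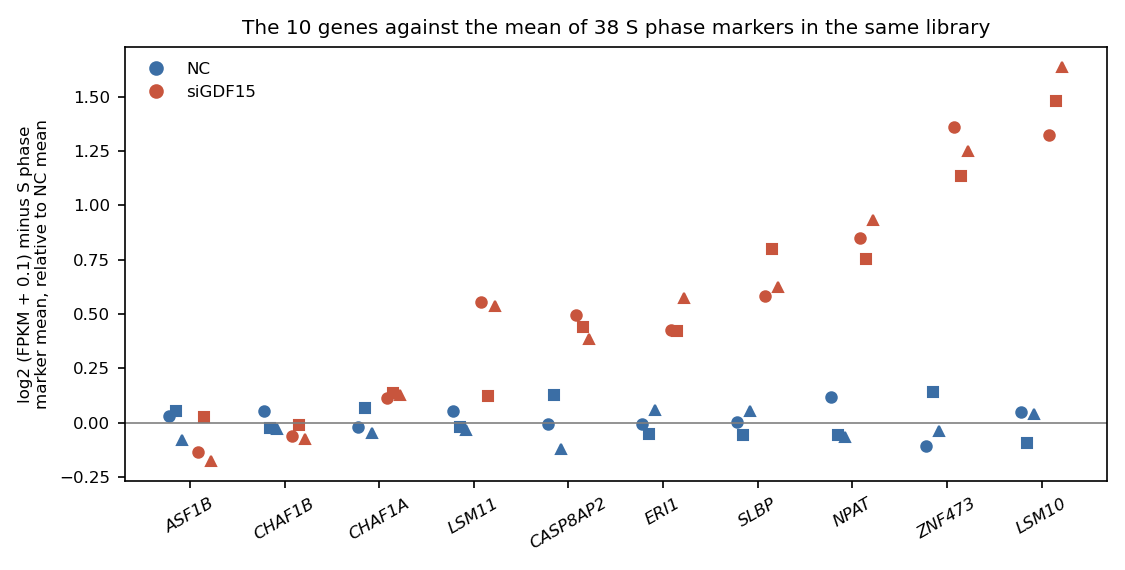
Log2 of FPKM plus 0.1 of each gene minus the mean of the 38 S phase markers in the same library, relative to the NC mean (vertical axis), by gene (horizontal axis), with NC in blue, siGDF15 in red and circles, squares and triangles for replicates 1 to 3. The siGDF15 points of ASF1B and CHAF1B overlap those of NC and those of LSM10 lie 1.48 higher on average.

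Factors that work with the processing genes were divided. The 24 listed genes were mostly for cleavage, the shared Sm ring, the cap complex and the turnover of histone mRNA. Of these 24, 13 were called lower, 4 higher and 7 were not called, with a median of -0.21. YY1, outside those classes, was among the genes not called. NCBP1 and SRRT, of the nuclear cap-binding complex and its partner, fell by 0.71 and 0.54 on the log2 scale, and CPSF2, a subunit of the cleavage complex, fell by 0.45 (adjusted p = 1.27e-05, 4.09e-05 and 5.22e-05). CTIF, a translation factor for cap-bound mRNAs, rose by 0.93, the helicase DDX19B by 0.44 and NCBP2, the small cap-binding subunit, by 0.17 (adjusted p = 8.85e-06, 0.000308 and 0.013). The fourth, TUT7, which adds uridines to RNA ends, was named after its value was seen (0.35, adjusted p = 0.0167, with overlapping FPKM). With scaling by the total count alone, 2 of the 24 were called higher.

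Of 30 other histone chaperones and their regulators 29 were tested, and 18 were lower, 4 higher and 7 not called (median -0.36). HJURP, the chaperone of the centromeric histone CENP-A, fell by 1.87 on the log2 scale, TONSL, which reads new histones after replication, fell by 1.63, and MCM2, the helicase subunit that also binds H3-H4, fell by 1.21 (adjusted p = 5.57e-07, 1.22e-06 and 9.21e-07). ATRX, which works with DAXX in depositing H3.3, rose by 0.55, SUPT6H, a chaperone of elongating RNA polymerase II, by 0.33 and TLK2, a kinase of ASF1 proteins, by 0.33 (adjusted p = 0.000532, 0.000305 and 0.00156). TLK1, the fourth, was named after its value was seen (0.21, adjusted p = 0.0166, with overlapping FPKM). With scaling by the total count alone, 3 of the 29 were called higher.

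**Figure D4:**
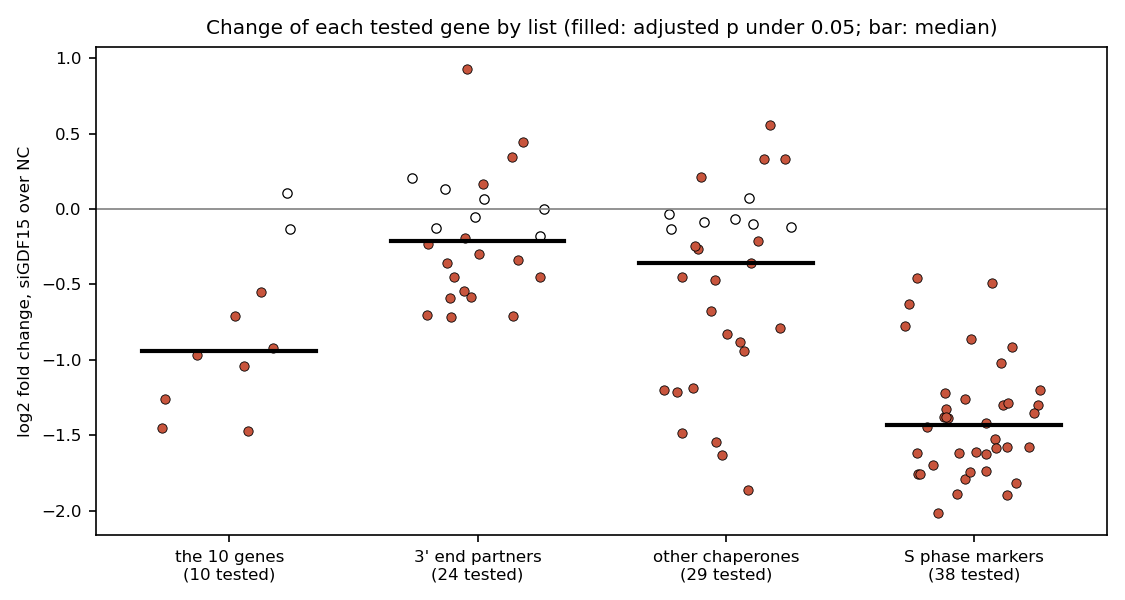
Log2 fold change of siGDF15 over NC (vertical axis) of each tested gene in 4 groups of genes (horizontal axis), with filled points for an adjusted p under 0.05 and bars for medians. The medians are -0.94 for the 10 genes, -0.21 for their 3′ end partners, -0.36 for the other chaperones and -1.43 for the S phase markers.

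Polyadenylated transcripts of the replication-dependent histone genes were measured in the same libraries. Of 59 replication-dependent histone genes in the deposited file, 16 passed the filter on mean FPKM, which a gene could pass through the higher group alone, and 13 of these were called higher and 3 lower. For 7 of the 13 the NC mean was under 1 FPKM, so that they passed only through siGDF15, and the counts are no measure of the 59 genes. With a lower limit of 0.1 FPKM 21 were called higher, and with no filter 18. H2AC6 was 4.36 ± 0.328 FPKM in NC and 44.2 ± 3.23 in siGDF15 (log2 fold change 3.44, SE 0.082, adjusted p = 1.86e-07). H1-2, a linker histone, was 10.5 ± 0.752 and 56.0 ± 6.37 FPKM (log2 fold change 2.52, SE 0.099, adjusted p = 6.5e-07). The lowered ones, named after their values were seen, were H2AC20 (-1.29), H2BC9 (-1.27) and H2BC12 (-0.59). These libraries hold poly(A) RNA, so the values count polyadenylated histone transcripts and not the tailless mRNAs that the 7 processing genes serve, and histone genes with near-identical copies may share reads.

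The stem-loop that SLBP and ERI1 bind can be read in the transcripts themselves. One line gives it for H2AC6 (chromosome 6), with the 16 bases that matched in capitals and 5 bases on each side. The search, on the transcript's own strand, asked for GG, CTTTT, AG and CC in this order with 2, 1 and 2 free bases between them.
H2AC6: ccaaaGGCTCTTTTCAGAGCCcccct
In the GENCODE 29 transcripts, 24 of the 55 histone genes with a transcript held the pattern. Many transcripts without it are short, such as those of H2BC12 (381 bases), H3C1 (411) and H4C1 (312), and may end before the stem-loop. The 24 are therefore no count of the histone genes that encode it. Of all 206694 single transcripts, 128 (0.0619%) held the pattern, a share of transcripts and not of genes. The 2 H2AC6 transcripts that hold it run on for 1114 and 1128 bases after it. This was not particular to raised genes, since the transcript of H2BC9, which was called lower, runs on for 1640 bases. A transcript over 100 bases past the pattern was listed for 7 of the 11 genes called higher that have a transcript. It was listed for 12 of the 44 other genes, most of which were not tested. Transcripts that extend past the stem-loop can be polyadenylated, but whether the libraries' reads came from such extensions was not tested.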

How the data were processed

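Cells transfected with siGDF15 and NC cells (3 libraries each) were sequenced as poly(A) RNA in read pairs of 150 bases. The submitters' processing notes name fastp, HISAT2, StringTie, edgeR and GRCh38; versions, options and the annotation release are not given in the sources used here. The authors deposited FPKM, scaled by transcript length and mapped fragments, and expected counts, which are whole numbers derived from coverage without normalization. The value 4 made up 15.6% of counts from 1 to 20, so 1 read pair may be written as 4, and dividing by 4 was an alternative. Intervals cover the spread between libraries, whose number limits their precision.

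Groups were taken from sample titles. Counts were fitted with edgeR 4.0.16 (TMM, quasi-likelihood F-test, two-sided) on the 11867 genes that averaged 1 FPKM or more, with p-values adjusted by Benjamini and Hochberg's method. Standard errors were derived from the F statistic. Ratios used log2 of FPKM plus 0.1 and exact permutation tests. Alternatives were other scalings, limma 3.58.1, DESeq2 1.42.0, other filters and pseudocounts, the replicate block and fits that omitted 1 library. The fit was also run on simulated counts. Far fewer genes were changed there than were called in these data, so no support is drawn from it. R 4.3.3 and Python 3.11.15 were used. The 10 genes and all lists were chosen with earlier results of these data known. Named beside the 10 genes were ASF1A, RBBP4, GDF15, the 3 genes of smallest adjusted p in each direction in each list and the 2 called histone genes of highest mean FPKM. Gene coordinates are those of the deposited table, promoters are from RefSeq and transcripts from GENCODE 29, whose bounds equalled those of the table for 1 of the 10 genes (ZNF473).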

Additional observations from a re-analysis of the deposited data

How the results depend on the processing

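The 8 lowered genes were called lower, and LSM10 and ZNF473 not called, in each of the 10 other settings of the fit (scaling by total count, DESeq2 size factors or medians, DESeq2, limma with 1 or 0.1 added to FPKM, a lower FPKM limit of 0.1 or none, counts divided by 4, the replicate block) and in each of the 6 fits without a library. The adjusted p of LSM10 stayed between 0.0955 and 0.99, and its log2 fold change was -0.0011 with limma and 0.1 added, against 0.10. The fold change of LSM11, the gene of lowest counts, ranged from -1.14 to -0.62 over the settings, the weakest with limma and 1 added, and from -1.20 to -0.89 over the libraries left out, so that it passed the study's fold threshold in some of these and not in others. In the main fit the genes lower under the study's rule were 4. CASP8AP2 (-1.07 to -0.82 over the settings) and ERI1 (-1.02 to -0.85) passed the fold threshold in some settings but not in the main fit. The count under that rule therefore depends on the setting. Partners of 3′ end formation called higher were 2 with the total count alone, with limma and either pseudocount, and with no filter. Histone genes called higher were 21 at a mean FPKM of at least 0.1. With 1 added to each FPKM, CHAF1A over CHAF1B differed by 0.040 and LSM10 over LSM11 by 0.62. Replicate numbers did not pair the libraries (correlations of deviations 0.0276, -0.0753 and 0.0458), and with the replicate block 8 of the genes were lower and no call on a single gene of the 10 changed. Depth limits LSM11 most, with 227 counts in its lowest library, and the read pairs behind these counts may be fewer.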
